A study of Canis lupus familiaris with 28 samples.

Results

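Transcripts of the heat shock proteins and of the DNAJ (HSP40) co-chaperones were described in the blood of 20 dogs with atopic dermatitis (AD dogs) and 8 healthy dogs. A gene was included when its name on the array began with HSP followed by a letter from A to H or a digit, or with DNAJA, DNAJB or DNAJC and a number, and when the median processed signal of its brightest probe over all arrays and both channels exceeded 100. The names of 60 genes matched and 53 genes passed the limit on signal, of 13458 genes with a symbol on the array. The genes nearest to the limit were DNAJC5G (signal 104) and HSPA12A (109) inside it and DNAJC18 (82) and DNAJB5 (81) outside it. Also left out were DNAJB7, DNAJC6, DNAJC11, DNAJC24 and HSPE1, whose probe with that symbol had a signal of 19. HSPG2, which encodes the matrix proteoglycan perlecan and no chaperone, matched the name and was kept as a member.

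Each dog had 1 two-color Agilent array, with the dog's RNA in the Cy5 channel and a common reference in the Cy3 channel. The common reference was 1 pool of RNA from 13 other healthy dogs. The groups were named by disease state alone in the sample labels, which give no treatment, age or genotype for single dogs. The labels call the material whole blood and the methods of the study speak of peripheral blood nuclear cells. The value given for a gene is the log2 ratio of the dog's signal over the common reference, centered on the median of the array, so that 0 stands for the level in the reference relative to the median probe. In bulk blood RNA, fewer cells of a type and less RNA per cell cannot be told apart.

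Chaperones bind unfolded or partly folded proteins and keep them from aggregating. HSP70 proteins (HSPA genes) bind short hydrophobic stretches in a cycle driven by ATP, and DNAJ proteins bring substrates to them and stimulate their ATPase through the J domain. HSP110 proteins such as HSPH1 exchange the nucleotide, and HSP90 proteins act later on kinases, receptors and other clients. The chaperonin HSPD1 with its lid HSPE1 folds proteins inside mitochondria, and small heat shock proteins (most HSPB genes) hold unfolded proteins without ATP. Heat and other stress induce the cytosolic members through the transcription factor HSF1, whereas HSPA5 (BiP), HSP90B1 (GRP94), DNAJC3 and DNAJB9 of the endoplasmic reticulum (ER) are induced by the unfolded protein response. In developing red cells, HSP70 is known to protect GATA1.

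The array measures each gene with 60-base probes. The sequences of 5 probes are printed because the relations described further on rest on whether probes of a gene moved together. Each has at least 1 reading frame without a stop codon. Capitals mark the longest run, 7 bases, that the DNAJB1 probe shares with the brightest DNAJC16 probe.
DNAJB1, its second probe by signal, chr20:48129240-48129299, plus strand: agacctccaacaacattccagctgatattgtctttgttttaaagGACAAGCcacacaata
DNAJC16, its brightest probe, chr2:81993661-81993720, minus strand: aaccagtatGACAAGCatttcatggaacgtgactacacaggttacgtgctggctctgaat
DNAJC16, its second probe by signal, chr2:82023667-82023726, minus strand: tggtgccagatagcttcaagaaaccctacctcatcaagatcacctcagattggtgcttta
DNAJC22, its only probe, chr27:5262836-5262895, minus strand: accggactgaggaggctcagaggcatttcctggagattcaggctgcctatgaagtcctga
HSPA5, its second probe by signal, chr9:57855145-57855204, plus strand: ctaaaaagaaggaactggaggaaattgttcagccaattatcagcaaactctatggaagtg
Positions are on canFam3, the build in the file headers, which give no exon or UTR for a probe. The longest run that the DNAJB1 probe shares with the DNAJC22 probe is 4 bases, and that of the DNAJC16 and DNAJC22 probes is 7 bases.

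The share of probes detected well above background in the Cy5 channel was 84.3% to 90.3% on healthy arrays and 51.7% to 87.4% on AD arrays, with 7 AD arrays under 65%. Healthy dogs lay on 2 slides and AD dogs on 6 others, and no scan day held both groups, so slide and disease cannot be told apart. Marker genes of T cells (11 of 12 measured), B cells (7 of 8), neutrophils (9 of 11), monocytes (7 of 7), platelets (6 of 9), cytotoxic cells (4 of 8), eosinophils and basophils (4 of 8) and red cells (7 of 12) were detected, and none of them passed the test between AD and healthy dogs.

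No heat shock or DNAJ gene passed the test between AD and healthy dogs. The study's threshold was used, a limma adjusted p up to 0.085 over 30202 probes, and at 0.05 the count was 0 too. Over all probes 0% were called at 0.085. The study itself reported differentially expressed transcripts at this threshold, after a filter that kept fewer transcripts. Its list was thus not reproduced here. In simulated data this test recovered 17.5% of changes of 0.5 on the log2 scale. The members lay on both sides of 0, with 29 lower and 24 higher in AD dogs, a median log2 fold change (AD minus healthy) of -0.01 and a range of -0.27 to 0.42. The median over 10269 genes with a symbol was 0.00, and 5060 of them were lower in AD dogs. That share is the background for the counts by direction given further on. At an unadjusted p under 0.05 only 1 of the 53 members passed, HSPBAP1, against 6.12% of all probes. AD and healthy dogs overlapped for all 53 members, and 0% of probes had groups that did not overlap.

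**Figure D1:**
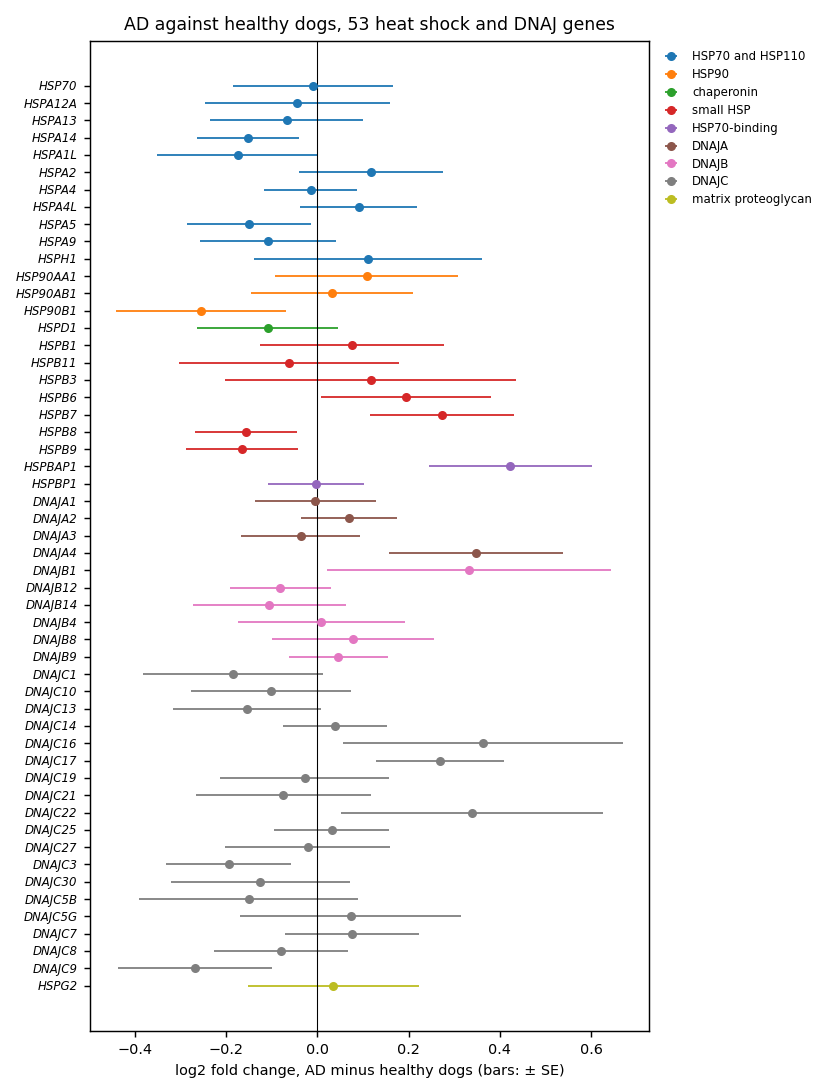
Log2 fold change (AD minus healthy dogs, bars ± SE from limma) of the 53 members, colored by family. HSPBAP1 at 0.42 has the largest value and DNAJC9 at -0.27 the lowest, and most bars cross 0. HSPBAP1 is colored with HSPBP1 as HSP70-binding, although it binds HSPB1, and all HSPB genes are colored as small heat shock genes.

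Of the stress-inducible members none passed the test between the groups. The gene listed as HSP70, the inducible cytosolic form, ranged from -1.16 to 0.62 in AD dogs (median -0.10) and from -0.71 to 0.74 in healthy dogs (median -0.04). Its log2 fold change was -0.01 (SE 0.18, limma adjusted p = 0.994), and 3 further probes of the gene gave 0.04, 0.10 and 0.01. HSPH1 ranged from -1.68 to 1.13 in AD dogs (median 0.13) and from -0.68 to 1.12 in healthy dogs (median -0.28), with a fold change of 0.11 (SE 0.25). DNAJB1, a cytosolic HSP70 partner, had a fold change of 0.33 (SE 0.31), with medians of 0.32 in AD and -0.34 in healthy dogs. For all 3 genes the values of the groups overlapped widely. DNAJA1, the main cytosolic partner of HSP70 proteins, had a fold change of 0.00 (SE 0.13), and the small heat shock protein HSPB1 (HSP27) one of 0.08 (SE 0.20). Of 10 members known as HSF1 targets, 4 were lower and 6 higher in AD dogs, with a median of 0.02 and 0 called.

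The cytosolic HSP90 genes were the brightest members, with median signals of 21315 for HSP90AA1 and 22001 for HSP90AB1. HSP90AA1, the inducible form, ranged from -0.67 to 0.81 in AD dogs (median -0.18) and from -1.49 to 0.53 in healthy dogs (median -0.09), a fold change of 0.11 (SE 0.20). Without healthy dog 5, at -1.49, it was -0.08 (limma unadjusted p = 0.653). The second HSP90AA1 probe had a fold change of 0.01 (SE 0.14). Probes listed by accession and described as HSP90AA1 (signals 12895, 4862, 2648 and 1236) had 0.03, -0.11, -0.04 and -0.10. HSP90AB1, the constitutive form, ranged from -1.21 to 0.63 in AD dogs (median -0.36) and from -0.54 to -0.12 in healthy dogs (median -0.35), a fold change of 0.03 (SE 0.18). Its healthy values lay inside the range of the AD dogs, and its SD was 0.50 in AD and 0.17 in healthy dogs. The HSP70 proteins that serve other tasks did not pass either. HSPA4, a nucleotide exchange factor, had a fold change of -0.01 (SE 0.10), HSPA14, which binds the ribosome, -0.15 (SE 0.11), and HSPA2 0.12 (SE 0.16).

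The members listed as ER chaperones were lower in AD dogs in 6 of 8 cases, with a median log2 fold change of -0.13, and 0 of 8 passed the test. They were correlated across dogs (median r 0.59 in AD dogs), so the 8 are not independent of each other. DNAJB12, DNAJB14 and DNAJC16 were not on that list and had -0.08, -0.11 and 0.36. Other ways of assigning genes to the ER were not tested. HSPA5 ranged from -0.62 to 0.84 in AD dogs (median 0.00) and from -0.12 to 0.64 in healthy dogs (median 0.11), a fold change of -0.15 (SE 0.14, limma adjusted p = 0.873). HSP90B1 ranged from -1.17 to 0.96 in AD dogs (median -0.35) and from -0.32 to 0.40 in healthy dogs (median -0.07), a fold change of -0.26 (SE 0.19, limma adjusted p = 0.866). For HSPA5 most AD dogs lay within the range of the healthy dogs, whereas for HSP90B1 the AD median was below the lowest healthy dog. DNAJC3 (p58IPK), which binds HSPA5 and inhibits the kinase PERK, had -0.19 (SE 0.14), and DNAJC10 (ERdj5), a disulfide reductase, -0.10 (SE 0.18). DNAJB9 (ERdj4) and DNAJC25 were the 2 listed ER members with positive values, 0.05 (SE 0.11) and 0.03 (SE 0.13).

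In mitochondria, HSPA9 (mortalin), HSPD1 (HSP60), DNAJA3 and DNAJC19 were all lower in AD dogs, by 0.03 to 0.11 on the log2 scale, and none passed the test. HSPD1 ranged from -0.85 to 0.63 in AD dogs (median 0.05) and from -0.80 to 0.64 in healthy dogs (median 0.18). Its fold change was -0.11 (SE 0.15), and -0.24 without healthy dog 5 (limma unadjusted p = 0.0969). A brighter probe listed by accession and described as HSPD1 (signal 3825, against 518) had a fold change of 0.02 (SE 0.20). HSPA9 had -0.11 (SE 0.15), DNAJA3 -0.04 (SE 0.13) and DNAJC19, of the inner membrane, -0.03 (SE 0.19).

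The members with the smallest unadjusted p in each direction came from several families. HSPBAP1, which binds the small heat shock protein HSPB1, ranged from -0.71 to 1.00 in AD dogs (median 0.17) and from -0.99 to 0.06 in healthy dogs (median -0.14). Its log2 fold change was 0.42 (SE 0.18, limma unadjusted p = 0.0242, adjusted p = 0.668). Without healthy dog 5, at -0.99, its limma unadjusted p was 0.0872 (log2 fold change 0.32), and across AD dogs its log2 ratio had an r of -0.66 with the share of probes well above background, whose part in the difference was not tested. DNAJC17, DNAJA4, HSPB7 and DNAJC16 followed with higher values in AD dogs, 0.27 to 0.36 on the log2 scale, and DNAJC9, DNAJC3, HSPB8, HSP90B1 and HSPA14 with lower ones, -0.15 to -0.27, all at an adjusted p of at least 0.843. HSPB7 was at -0.18 (SE 0.16) in the dog's channel alone, and lower on AD arrays by -0.48 in the reference channel (SE 0.09, limma adjusted p = 0.000505). DNAJC3 was at -0.31 without healthy dog 5 (limma unadjusted p = 0.0248), against -0.19 with it. By family, DNAJC genes were lower in AD dogs in 11 of 18 cases, HSP70 and HSP110 genes in 8 of 11 and DNAJA genes in 2 of 4. DNAJB genes were lower in 2 of 6 cases and genes with an HSPB symbol, HSPB11 among them, in 3 of 7.

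**Figure D2:**
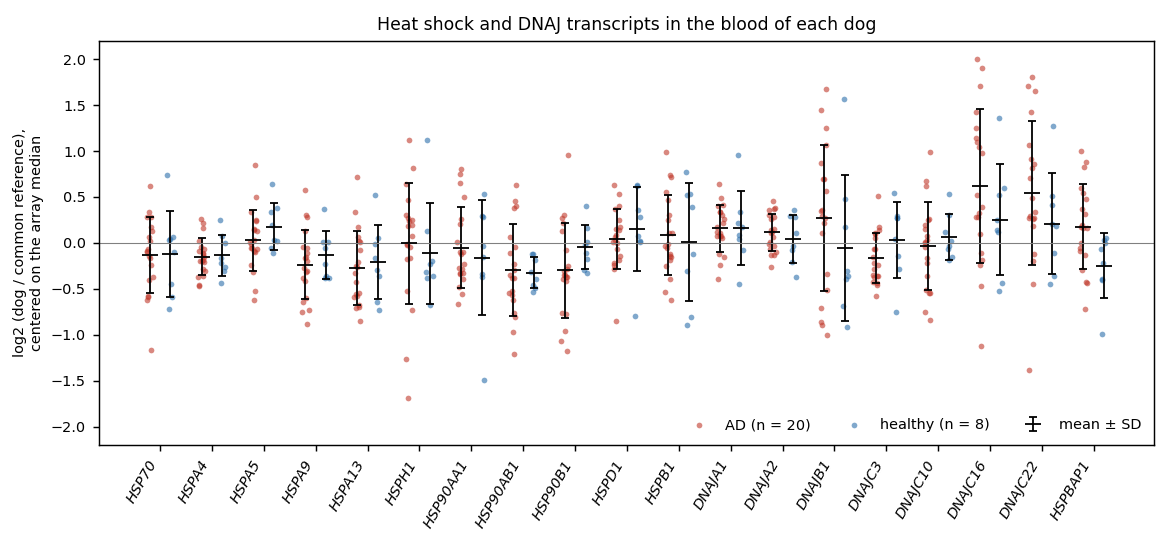
Log2 ratio of the dog's signal over the common reference, centered on the array median, for 19 members, with 1 point a dog (20 AD, 8 healthy) and the mean ± SD of each group. The groups overlap for every gene, and among the plotted genes DNAJB1, DNAJC16 and DNAJC22 have the largest SD in AD dogs, where DNAJB1 runs from -0.999 to 1.68.

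Other genes of the same pathways gave the same count of calls. Of 56 listed co-chaperones, chaperonin subunits, prefoldins and related genes, 43 were measured, with 26 lower and 17 higher in AD dogs, a median of -0.02 and 0 called. Of 28 ER stress genes, 25 were measured, 18 lower and 7 higher, with a median of -0.08 and 0 called. EDEM1, which directs misfolded glycoproteins to degradation, ranged from -0.98 to 0.62 in AD dogs (median -0.31) and from -0.10 to 0.82 in healthy dogs (median 0.32), a fold change of -0.48 (SE 0.17, limma adjusted p = 0.506).

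The common reference was the same RNA on every array and served as background for the comparison. In that channel alone, 14 of the 53 members (26.4%) differed between AD and healthy arrays by limma at the threshold of 0.085, 6 higher and 8 lower on AD arrays, against 39.1% of all probes. DNAJC30 had the smallest p there, with a log2 fold change of 0.56 (SE 0.09). In the dog's channel alone, DNAJA4 was the only member called, at 0.83 (SE 0.22, adjusted p = 0.0301), against 4.14% of all probes. In the reference channel DNAJA4 was higher on AD arrays as well, by 0.44 (SE 0.09), and the ratio of the channels gave 0.35 (SE 0.19, adjusted p = 0.851). Across the 6 slides that held AD dogs, 0 members differed by limma's moderated F test at an adjusted p of at most 0.05, against 3.74% of all probes, and 9 had an unadjusted p under 0.05, against 16.5% of all probes. DNAJC5B came closest (adjusted p = 0.0599).

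The dogs differed from each other in these genes more than the groups did. The median SD over AD dogs was 0.43 for the members and 0.41 for all genes with a symbol, and over healthy dogs 0.32 and 0.29. In AD dogs the largest SD belonged to DNAJC16 (0.84), HSPB3 (0.84) and DNAJB1 (0.79), and in healthy dogs to DNAJB1 (0.79), HSPB3 (0.74) and HSPB1 (0.64). HSPB3 is a muscle gene with a median signal of 155, near the limit. HSPA4, DNAJA2, DNAJB9, HSPB8 and HSPBP1 were the steadiest members in AD dogs, with an SD of 0.18 to 0.20.

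Pairs of chaperones that work together were compared across dogs within each group. Of 8 pairs, 6 could be measured, since HSPA8 had no probe under its symbol and HSPE1 fell below the signal limit. The 6 pairs in both groups made a family of 12 correlations. In AD dogs 5 of the 6 pairs passed a permutation test with Benjamini-Hochberg adjustment at 0.05, and in healthy dogs 1 of 6.

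HSPA5 and HSP90B1, the main HSP70 and HSP90 of the ER lumen, rose and fell together from dog to dog. In AD dogs Pearson's r was 0.92 (permutation p = 1e-05, the smallest that the permutations can give, adjusted p = 6e-05) and Spearman's rho 0.87 (permutation p = 1e-05). In healthy dogs r was 0.97 (exact permutation p = 0.000223, adjusted p = 0.000893) and rho 0.98 (exact permutation p = 0.000397). Without the 2 dogs farthest from the median r was 0.84 and 0.98, and with the mean of each slide removed 0.92 and 0.90. AD dog 17 was highest for both genes (0.84 and 0.96) and AD dog 14 lowest (-0.62 and -1.17). HSPA5 and DNAJC3 had r = 0.61 in AD dogs (permutation p = 0.00446, adjusted p = 0.00892; rho 0.65, permutation p = 0.00246) and 0.49 in healthy dogs (exact permutation p = 0.219; rho 0.45, p = 0.267). For this pair r without the 2 farthest dogs was 0.59 in AD and 0.38 in healthy dogs, and with slide means removed 0.68 and -0.22. With the mean of all probes of a gene the healthy value was 0.83 and passed (exact permutation adjusted p = 0.0304).

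The cytosolic HSP90 genes HSP90AA1 and HSP90AB1 had r = 0.90 in AD dogs (permutation p = 1e-05, adjusted p = 6e-05; rho 0.86, permutation p = 1e-05), and 0.91 without the 2 farthest dogs. In healthy dogs r was 0.13 (exact permutation p = 0.804; rho -0.10, p = 0.84). Without healthy dog 5, lowest for HSP90AA1 at -1.49 and second lowest for HSP90AB1 at -0.49, r was -0.43 (exact permutation p = 0.32). The difference of r between the groups, 0.77, had a permutation p of 0.0182, which was 0.0546 after adjustment over the 6 pairs. HSP90AA1 and HSPH1 had r = 0.65 in AD dogs (permutation p = 0.00215, adjusted p = 0.00645; rho 0.71, permutation p = 0.00055) and 0.34 in healthy dogs (exact permutation p = 0.338; rho 0.19, p = 0.665). Without the 7 low-signal AD arrays the first of these was 0.51 and no longer passed (adjusted p = 0.14).

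HSPA9 and HSPD1 of the mitochondrial matrix had r = 0.63 in AD dogs (permutation p = 0.00304, adjusted p = 0.0073; rho 0.72, permutation p = 0.00047), and 0.59 without the low-signal arrays (adjusted p = 0.078). In healthy dogs r was 0.26 (exact permutation p = 0.53; rho 0.33, p = 0.428). HSPH1 and DNAJB1, both HSF1 targets, were the 1 pair with opposite signs. Their r was -0.41 in AD dogs (permutation p = 0.0721, adjusted p = 0.108; rho -0.37, permutation p = 0.104) and 0.73 in healthy dogs (exact permutation p = 0.0708, adjusted p = 0.108; rho 0.40, p = 0.327). The difference of -1.14 had a permutation p of 0.0149 (0.0546 adjusted). The healthy value rested on healthy dog 1, at 1.12 for HSPH1 and 1.57 for DNAJB1, without which r was -0.10.

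**Figure D3:**
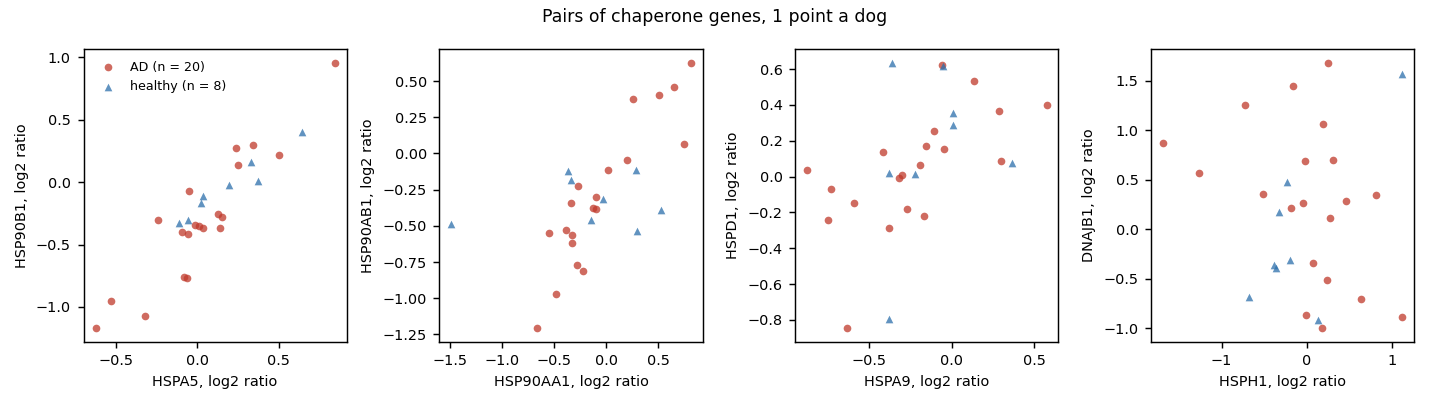
Log2 ratios of 4 chaperone pairs, 1 point a dog (20 AD dogs as circles, 8 healthy dogs as triangles). HSPA5 and HSP90B1 lie along 1 line in both groups (r = 0.92 and 0.97), whereas HSP90AA1 and HSP90AB1 do so in AD dogs (r = 0.90) and not in healthy dogs (r = 0.13).

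Some chaperones left out by the rule are on the array under accession numbers. They are given as a description. The brightest probe described as HSPA8, the constitutive cytosolic HSP70, had a signal of 44920, above every member, a log2 fold change of 0.00 (SE 0.16) and an r of 0.67 with DNAJA1 across AD dogs. The brightest one described as HSPE1 had a fold change of -0.06 (SE 0.20) and an r of 0.82 with HSPD1. Its 2 dimmer probes (signals 456 and 322) had fold changes of 0.46 (SE 0.21, limma unadjusted p = 0.0388, adjusted p = 0.767) and 0.41 (SE 0.20), and an r with HSPD1 of -0.36 and 0.36. That described as DNAJB11, an ER partner of HSPA5, had -0.16 (SE 0.14) and an r of 0.93 with HSPA5.

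Over all 1378 pairs of members the median r was 0.09 within either group of dogs, against -0.01 over all genes with a symbol. An r over 0.5 was found for 24.5% of member pairs in AD dogs, against 11.7% of all pairs, and for 21.5% in healthy dogs, against 18.2%. The points share library, slide and cell make-up, so these shares are a description. By compartment, the median r in AD dogs was 0.59 among the 8 ER members, 0.75 among the 4 mitochondrial members and 0.68 between ER and mitochondria. In healthy dogs these values were 0.44, 0.34 and 0.42. The 3 HSP90 genes had a median r of 0.88 across AD dogs, against 0.34 across healthy dogs. DNAJB genes did not move together, with a median of -0.20 and -0.05, nor did the genes with an HSPB symbol in AD dogs, at -0.01.

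The matrix of correlations showed opposed groups, which were picked after their values were seen and are described without a test. One held 17 chaperones, namely the ER list without DNAJC25, the mitochondrial list, and HSP90AA1, HSP90AB1, HSPA4, HSPH1, DNAJA1 and DNAJA2 of the cytosol. The cytosolic genes were picked singly and not from a list. Other members outside the ER and mitochondrial lists, such as HSPA2, HSPA14 and DNAJC7, were left out of it. In AD dogs 132 of their 136 pairs were positive and 111 had r over 0.5 (median 0.68). In healthy dogs 119 were positive and 47 had r over 0.5 (median 0.42). The other held DNAJB1, a cytosolic HSP70 partner, with DNAJC16, a membrane protein with a thioredoxin fold, DNAJC22, a little studied membrane protein, and the small heat shock protein HSPB6, with r from 0.78 to 0.94 in AD dogs and 0.56 to 0.96 in healthy dogs. All 68 pairs between the groups were negative in AD dogs (median -0.52), and 43 of 68 in healthy dogs (median -0.17). The gene listed as HSP70 went with neither in AD dogs. Its r with the 17 chaperones was -0.32 to 0.33 there (median -0.10), and with DNAJB1 it was 0.70 in healthy dogs.

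**Figure D4:**
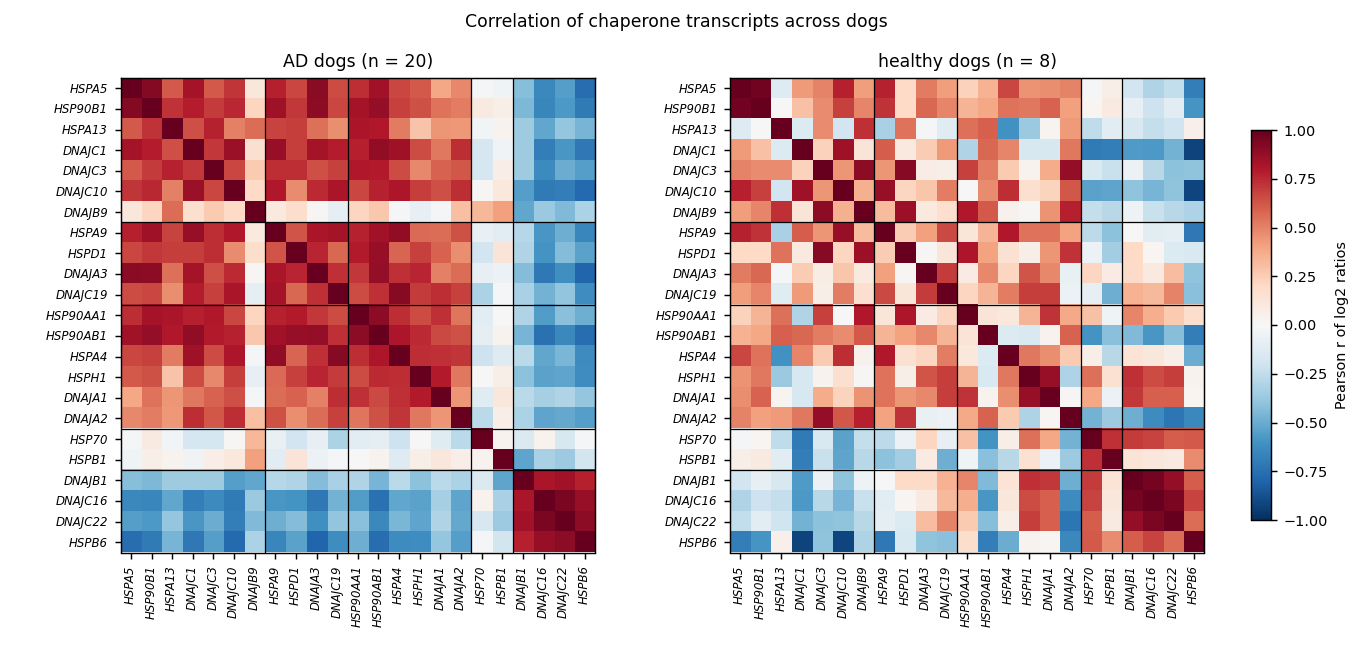
Pearson r of the log2 ratios of 23 members across 20 AD dogs (left) and 8 healthy dogs (right). Lines separate ER, mitochondrial and cytosolic members, then HSP70 with HSPB1, then DNAJB1, DNAJC16, DNAJC22 and HSPB6. In AD dogs the first 17 genes are mostly positive with each other and all negative with the last 4.

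In AD dogs DNAJB1 and its group followed the transcripts of red cells, and in healthy dogs DNAJB1, DNAJC16 and DNAJC22 did. The 7 measured erythroid markers included ALAS2, SLC4A1, AHSP and KLF1, and their mean log2 ratio ranged from -1.54 to 1.35 in AD dogs (median 0.43) and from -1.33 to 1.11 in healthy dogs (median -0.18). DNAJB1 ranged from -0.999 to 1.68 in AD dogs (median 0.32) and from -0.92 to 1.57 in healthy dogs (median -0.34). AD dog 20 was highest and AD dog 9 lowest for both DNAJB1 and the marker mean, and healthy dog 1 was highest for both. Across AD dogs DNAJB1 and the marker mean had r = 0.94 (rho 0.94), and across healthy dogs 0.86 (rho 0.86). With the mean of the platelet markers DNAJB1 had r = -0.87 and DNAJC16 -0.83 across healthy dogs, against 0.12 and 0.24 across AD dogs. The member with the highest r with the erythroid markers across healthy dogs was DNAJC27, at 0.91, against 0.14 across AD dogs.

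**Figure D5:**
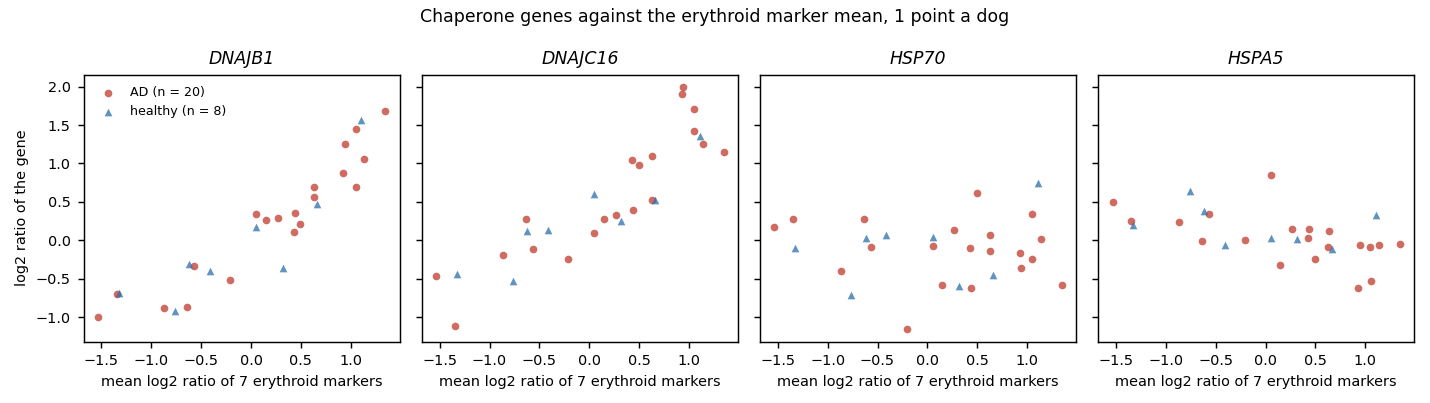
Log2 ratio of DNAJB1, DNAJC16, HSP70 and HSPA5 against the mean log2 ratio of 7 erythroid markers, 1 point a dog (20 AD dogs as circles, 8 healthy dogs as triangles). DNAJB1 and DNAJC16 climb with the marker mean in both groups (r = 0.94 and 0.88 in AD dogs), while HSP70 has r = -0.13 in AD and 0.32 in healthy dogs and HSPA5 has -0.57 and -0.33.

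A limma fit of every probe on the erythroid marker mean, chosen after the values were seen and with the probes of the marker genes left out, was used to set the members beside all genes. In AD dogs 5 members had a positive slope at an adjusted p of at most 0.05, against 15.9% of all probes, and 11 a negative one, against 16.6%. The 16 members called are 30.2% of 53, a share near that of all probes. DNAJB1 rose by 0.89 per unit of the marker mean (SE 0.08, limma adjusted p = 1.8e-08), and ranked 162 of 10262 genes by its slope over its error. DNAJC16 rose by 0.89 (SE 0.11, adjusted p = 1.07e-06), DNAJC22 by 0.82 (SE 0.11), HSPB6 by 0.49 (SE 0.08) and HSPB7 by 0.31 (SE 0.10).

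The negative slopes in AD dogs included ER chaperones and a cytosolic HSP90. DNAJC10 had -0.38 (SE 0.10, limma adjusted p = 0.00585), HSP90AB1 -0.36 (SE 0.11), HSP90B1 -0.34 (SE 0.12) and HSPA5 -0.23 (SE 0.08, adjusted p = 0.0347). With slide as a fixed term HSPA5 and HSP90B1 no longer passed (adjusted p = 0.0551 and 0.085). Without the low-signal AD arrays DNAJC10 no longer passed (slope -0.32, limma adjusted p = 0.0535). The others were DNAJB14, DNAJC1, DNAJC8, DNAJC13, DNAJC21, DNAJC30 and HSPA1L.

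In healthy dogs DNAJC16, DNAJC22 and DNAJB1 were called, with slopes of 0.68 (SE 0.13), 0.61 (SE 0.12) and 0.85 (SE 0.17) and limma adjusted p of 0.0177 to 0.022. HSPB6 was not called there, with a slope of 0.19 (SE 0.14, limma adjusted p = 0.448). The background was 2.84% of probes with a positive slope and 0.931% with a negative one, and 0 members had a negative slope there. Without healthy dog 1 none of the 3 passed (DNAJB1 slope 0.56, adjusted p = 0.335). The slopes of the groups were not tested against each other. With the erythroid marker mean as a covariate, the log2 fold change of DNAJB1 between AD and healthy dogs went from 0.33 (SE 0.31) to 0.03, and that of DNAJC16 from 0.36 to 0.08. Without healthy dog 1 that of DNAJB1 was 0.57 (limma unadjusted p = 0.0704, adjusted p = 0.623).

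The relation depended on the probe. The second DNAJB1 probe, printed above, correlated with the brightest one (signal 9515) at r = 0.96 across AD dogs and 0.99 across healthy dogs, and 0.94 and 0.87 with the erythroid marker mean. The dimmest DNAJB1 probe, with a signal of 314, had -0.46 and 0.11 with the brightest and -0.43 and -0.17 with the markers. For DNAJC16, whose brightest probe had a signal of 284, the second probe printed above (signal 141) had -0.20 and -0.40 with the first, and -0.15 and -0.50 with the markers. DNAJC22 has 1 probe. The HSP70 probe with a signal of 1297 had r = 0.40 in AD and 0.55 in healthy dogs with the markers, and the brightest -0.13 and 0.32. For HSPB6 both probes followed the markers in AD dogs, with r = 0.83 and 0.84, and in healthy dogs r was 0.46 and 0.49. The second HSPA5 probe had r = 0.80 and 0.89 with the brightest, and HSP90B1's second 0.86 and 0.62. Of the 53 members, 26 had more than 1 tested probe, and over the 46 further probes the median r with the brightest was 0.65 in AD dogs, with 6 below 0.

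Markers of white cells were set against the members in the same way. Against the neutrophil marker mean, HSP90B1 alone was called in AD dogs, with a slope of -0.90 (SE 0.20, limma adjusted p = 0.0419) and r = -0.74, where 0.361% of probes had a called negative slope. HSPA5 had r = -0.58 with it. Against T cell, B cell, cytotoxic, monocyte, eosinophil and basophil, and platelet markers 0 members were called in either group at this threshold. What part cell make-up has in the correlations between chaperones was not tested.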

How the data were processed

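The authors hybridized RNA of each dog (Cy5) with the common reference (Cy3), and extracted and background-subtracted the signals with Agilent Feature Extraction 10.7.3.1 as the labels name it, with Lowess dye normalization. The deposited files hold spot intensity on a linear scale and a log10 ratio, which the authors' table of values repeats and which served as an alternative. The number of arrays limits the precision.

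Fits were run with limma 3.58.1 under R 4.3.3, correlations with Python 3.11.15 and figures with matplotlib 3.10.9. Control spots were left out, outlier spots were set to missing and spots of a probe were averaged (43603 probes). Probes with a median signal over 100 in at least 1 group and channel were kept (30202). The log2 ratio of processed signals was centered on the array median, and AD and healthy dogs were compared with lmFit and eBayes and Benjamini-Hochberg adjustment over all probes. A gene was represented by its brightest probe. Correlations across AD dogs were tested with 100000 permutations, those across healthy dogs by exact permutation. In simulated data the fit recovered 85% of changes of 1 on the log2 scale between AD and healthy dogs, and 17.5% of changes of 0.5. Simulated slopes of 0.8 on the erythroid marker mean were recovered for 93.5% of changed probes in AD dogs and 0% in healthy dogs. The simulation changed 200 of 30202 probes, whereas in the data 32.5% of probes were called in AD dogs and 3.77% in healthy dogs. The adjustment of p therefore differs, and these rates for slopes do not carry over to the data. Changes of the sizes described here between the groups can thus be missed. Slopes can be missed too, at a rate that the simulation does not give. The members and lists were chosen with earlier results of these data known. Genes were named from a list of core chaperones and fixed pairs, the 5 smallest unadjusted p in each direction and the 3 largest SD in each group; DNAJC22, HSPB6 and other genes in the correlation matrix were named after their values were seen. Dog numbers of the 2 groups do not stand for a shared dog or batch. Alternatives varied the filter, outlier marks, normexp (offset 50) with loess, centering, the use of the reference, the source of values, slide, scan day, dog number, weights, probes and dogs. Some single genes of the marker and pathway lists enter the counts and means but are not reported here by name.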

Additional observations from a re-analysis of the deposited data

Results flagged for a closer look

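Among the named genes, 7 had a healthy dog set apart from the other 7 by Dixon's criterion, which flags a single gene by chance about 1 time in 20. The genes are correlated across dogs and were partly named from these data, so the count cannot be judged by that rate. Healthy dog 5 was the lowest for HSP90AA1 at -1.49 (next -0.37), for HSPBAP1 at -0.99 (next -0.40), for HSPD1 at -0.80 (next 0.01), for DNAJB9 at -0.79 (next -0.14) and for DNAJC9 at -0.51 (next -0.10), and the highest for HSPB8 at 0.84 (next 0.23). Healthy dog 1 was the highest for HSPH1 at 1.12 (next 0.13). These are log2 ratios to the common reference, and 28 genes were examined. The share of probes well above background was 85.2% for healthy dog 5 and 89.5% for healthy dog 1. On the other healthy arrays it ran from 84.3% to 90.3%. Whether this share bears on the flagged values was not tested.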

How the results depend on the processing

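With the dog's channel alone 1251 probes and 1 member (DNAJA4) were called between AD and healthy dogs, and with array weights 849 probes, 1 member (DNAJC9, log2 fold change -0.39) and 1 of the other chaperone and ER stress genes (EDEM1). With no filter on signal 1 probe and 0 members were called. The cause was not tested. HSPB7 was at -0.18 in the dog's channel alone and 0.27 as the ratio. With the replicate block (dog number as a fixed term) 0 probes and 0 members were called, as in every other alternative, and 10 members (18.9%) had an unadjusted p under 0.05, against 17.1% of all probes. The dogs share only a number: the correlation of the deviations of same-numbered dogs ran from -0.36 to 0.42. The median log2 fold change of the members ran from -0.10 to 0.06 over all alternatives, and of 700 values of single genes 74 changed sign. Of 12 correlations, HSPA5 with DNAJC3 in AD dogs no longer passed after normexp and loess (0.49), whereas HSPH1 with DNAJB1 passed in AD dogs with the mean of all probes (-0.53, adjusted permutation p = 0.0256), and in healthy dogs with slide means removed (0.82, adjusted exact permutation p = 0.0376) or the share of probes above background removed (0.82, 0.0326). Members with a slope on the erythroid marker mean in AD dogs numbered 26 (49.1%, against 40.1% of all probes) with the share of probes well above background as a covariate. In healthy dogs they numbered 0 in the dog's channel alone (1.37% of all probes), 5 (9.43%, against 3.11%) with slide as a fixed term and 0 without healthy dog 1 (0.242% of all probes). DNAJB1, DNAJC16, DNAJC22 and HSPB6 passed in AD dogs under each alternative run, with DNAJB1 between 0.78 and 0.95. Among these were each marker left out in turn and the low-signal arrays left out. The slopes were not run with another probe or with the mean of the probes of a gene. For DNAJB1 and DNAJC16 the relation to the markers depended on the probe, as described above. Alternatives with the erythroid mean, healthy dog 1 or these slopes were chosen after seeing the data. Low-signal AD arrays limit dim genes such as DNAJC16 and HSPB3.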
